A study of Fraxinus excelsior with 182 samples.

Results

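The trees described here are those at both ends, 30 high and 30 low, of the second principal component of leaf gene expression, 60 of 182 Danish trees of European ash (Fraxinus excelsior). The component was computed from log2(TPM + 1), centred for each gene and not scaled, over the genes that reached 1 TPM in at least 19 trees. TPM is a transcript abundance corrected for transcript length, which sums to 1000000 in each tree. The sign of the component was set so that the tree Ash2 scored below 0. The labels give every library as leaf RNA of 1 named tree, 100 bp reads were made once per tree in an earlier study, and no treatment, genotype, age or time is given in the labels used here. The 30 high-score trees and the 30 low-score trees were therefore picked by their own expression values, and differences between them in gene level are descriptions without a test.

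In plants, MADS-box transcription factors set the timing of flowering, dormancy and organ shedding. In Arabidopsis, SOC1 promotes flowering and SVP delays it, partly by repressing SOC1, and JOINTLESS of tomato is named for the abscission zone of the flower stalk, where flowers and fruit are shed. Leaf RNA also carries the transcripts of chlorophyll synthesis, plastid protein folding, hormone response, cell wall turnover and membrane lipids, and these classes are described below by named members. The gene classes come from annotations that the study gave to genes it had linked with ash dieback damage on these same trees, so their direction here is not independent evidence about damage.

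Component 2 held 4.79% of the variance, against 30.5% on component 1 and 3.68% on component 3. The scores ran without a break at both ends of the selection. The last high-score tree, Ash53, had a score of 19.19 and the next tree, Ash39, had 19.15. The last low-score tree, Ash110, had -25.2 and the next, Ash149, had -24.3. At the extremes, Ash94 scored 91.8, Ash24 scored 82.5 and Ash144 scored 59.9, and Ash155 scored -74.3, Ash126 scored -73.8 and Ash40 scored -59.0. Which trees stood at the ends depended on the processing. With each tree scaled by the median of ratios, 15 of the 30 high-score and 15 of the 30 low-score trees kept their place. When the 18 trees farthest on component 1 were left out, 8 high-score and 14 low-score trees kept theirs. Those 18 included 10 high-score trees and the low-score trees Ash55 and Ash185, which could not keep a place.

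The high end was made of 2 sets of trees that lay far apart on component 1. The trees Ash7, Ash18, Ash24, Ash94, Ash98, Ash114, Ash132, Ash144, Ash168 and Ash181 had component 1 scores between 126.8 and 170.7. The other 20 high-score trees lay between -79.5 and 27.5. The 30 low-score trees lay at -45.6 to 112.98, with a median of 28.8, all above the median of the 20 (-49.8) and all below the 10. Of the 20 trees of the whole series above 100 on component 1, 10 were high-score trees, 3 were low-score trees and 7 were middle trees. The 10 high-score trees differed from the other 20 by at least 1 on the log2 scale in many genes, with 3682 genes (11.9% of those tested) higher in the 10 and 5607 (18.1%) lower. The population structure of these trees was not used here, and whether it goes with this split was not tested. Because of the split, differences below are given for all 30 high-score trees and again without the 10.

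**Figure D1:**
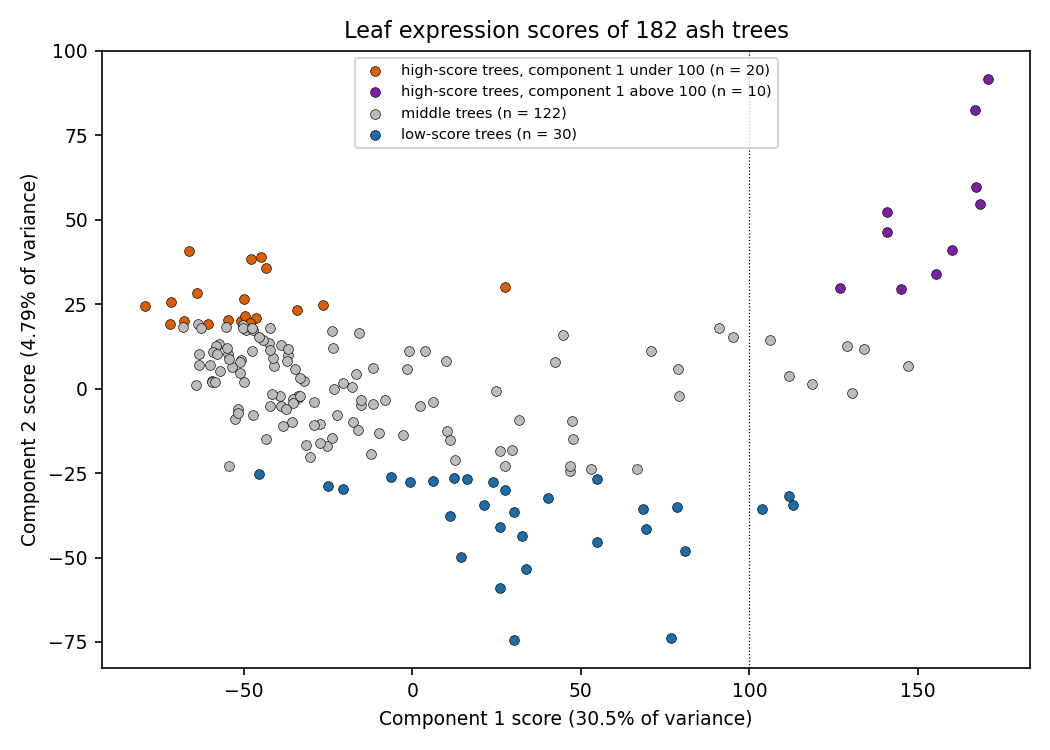
Component 1 score (horizontal) and component 2 score (vertical) of 182 ash trees, 1 point per tree, with the high-score trees in orange and purple, the middle trees in grey and the low-score trees in blue. The 10 purple trees lie to the right of the dotted line at 100 and the 20 orange trees lie between -79.5 and 27.5, with the low-score trees between -45.6 and 112.98.

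Fewer genes were detected in the high-score trees. Genes above 0 TPM numbered 33177 ± 563 in the high-score trees, 33281 ± 594 without the 10, and 33977 ± 387 in the low-score trees (SD, n = 30, 20 and 30). The middle trees had 33688 ± 460. The share of TPM held by the top 10 genes of each tree was 13.6% ± 3.02 in the 10 high-score trees, 5.35% ± 0.83 in the other 20 and 7.51% ± 1.91 in the low-score trees. The scaling factor by the median of ratios, which is 1 for a tree of typical gene levels, was 0.913 ± 0.095 in the high-score trees, 0.957 ± 0.070 without the 10, and 1.06 ± 0.049 in the low-score trees. The part of these measures in the gene differences was not tested. Sequencing depth is unknown, since it cannot be read from TPM.

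The labels hold 2 measures that the component did not use. The mean tree number was 87.2 in the high-score trees and 115.53 in the low-score trees, a difference of -28.3 (two-sided permutation test, p = 0.0333, adjusted p = 0.0666 by Benjamini-Hochberg over 2 tests). Leaving out the 10 was chosen after the data were seen, and its 2 tests were adjusted apart from the first 2. Without the 10 the means were 81.8 in the high-score trees and 115.53 in the low-score trees and the difference was -33.7 (permutation p = 0.0192, adjusted p = 0.0384). The direction rested on the axis as computed, since ends drawn with genes scaled to unit variance differed by 55.1 (permutation test, adjusted p = 0.00132) and those drawn without the 18 trees farthest on component 1 by 58.1 (adjusted p = 0.00112). The run numbers of the libraries follow the tree numbers, with 1 step back inside a first series of 140 trees, and start over for a second series of 40. The last 2 runs, Ash44 and Ash184, belong to neither series, and neither tree is in an end. Of the high-score trees 11 of 30 were in the second series, against 5 of 30 low-score trees (odds ratio 2.89, two-sided Fisher's exact test, p = 0.143, adjusted p = 0.143). Of the 10 high-score trees set apart on component 1, 8 were in the second series. Without them the counts were 3 of 20 high-score trees and 5 of 30 low-score trees (odds ratio 0.882, Fisher's exact p = 1).

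Most genes were lower in the high-score trees, and few were much higher. Of 42665 gene models, 31003 passed the filter, and all differences are between means of log2(TPM + 1), high-score minus low-score trees, on which the change of low genes is understated. The 5th percentile of the differences was -0.83, the median -0.19 and the 95th percentile 0.32, and 74.8% of genes were below 0. At least 1 lower were 925 genes (2.98% of those tested), and at least 1 higher were 27 (0.0871%). These counts follow from how the trees were chosen. Scaling each tree by the median of ratios, with the trees kept, moved the median by 0.17 to -0.02 and gave 567 genes lower (1.83%) and 60 higher (0.194%).

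The near absence of higher genes was seen in the 30 trees as 1 group and not in the 20. Without the 10 trees, 2084 genes (6.72%) were at least 1 lower and 978 (3.15%) at least 1 higher, around a median of -0.17. Scaling those 20 trees gave 1529 genes lower (4.93%) and 1449 higher (4.67%), around a median of -0.06. Of the 925 genes lower in all 30 trees, 748 were also lower by at least 1 without the 10, and of the 27 higher genes 17 were.

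**Figure D2:**
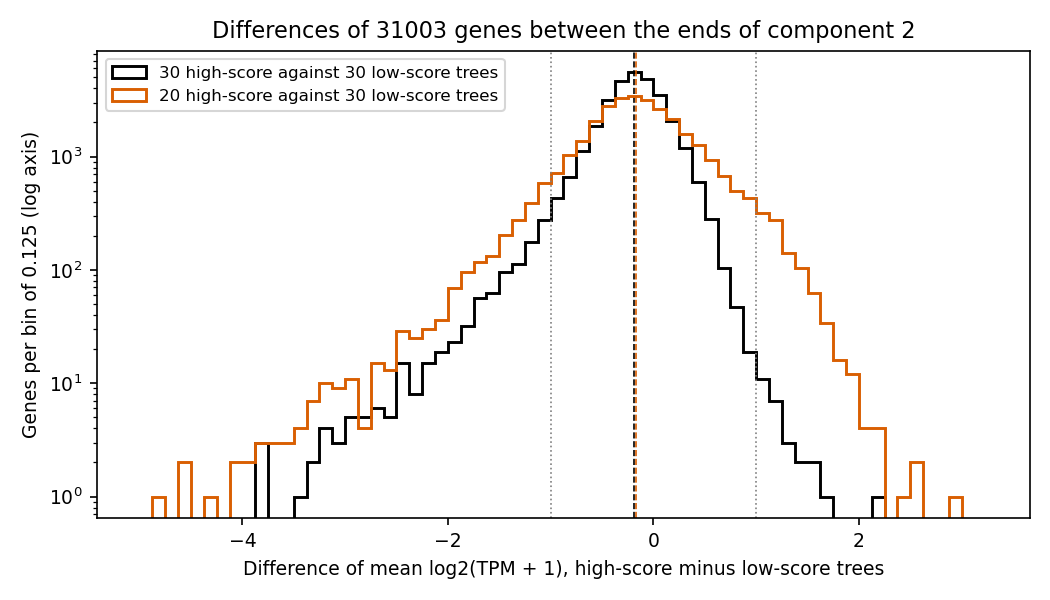
Number of genes (vertical, log axis) by their difference of mean log2(TPM + 1), high-score minus low-score trees (horizontal), for all 30 high-score trees in black and for the 20 without the 10 trees above 100 on component 1 in orange. Dashed lines mark the medians of -0.19 and -0.17 and dotted lines a difference of 1 in each direction, and the right side of the orange outline is far wider, with 978 genes past 1 against 27.

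On unscaled TPM, the tree by tree order was tighter for lower genes than for higher ones. The median difference of all genes was -0.19 on that scale and -0.02 after scaling, and its part in these counts was not tested. All 30 high-score trees lay below the median of the low-score trees in 995 genes (3.21%), and all 30 lay above it in 17 (0.0548%). At least 27 of the 30 lay below it in 4242 genes (13.7%) and above it in 0.439% of genes. The ranges of the 2 ends did not overlap in 4 genes (0.0129%), all 4 lower in the high-score trees. Without the 10 trees, 0.426% of genes did not overlap in the lower direction and 26 genes (0.0839%) in the higher.

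The 4 genes without overlap carry no annotation in the sources used here and were singled out after their values were seen. Fe_g3071 had 0.451 TPM at the lowest, 2.68 at the median and 9.37 at the highest in the high-score trees, against 9.52, 44.1 and 388 TPM in the low-score trees, a difference of -3.78. Fe_g18298 had 0, 0.329 and 1.52 TPM in the high-score trees and 2.07, 8.95 and 64.3 TPM in the low-score trees, a difference of -3.13. These were large differences on low levels in the high-score trees, where 3 of 30 were listed at 0 for Fe_g18298. The other 2 differed little but evenly. Fe_g12271 had 3.41, 5.83 and 7.41 TPM in the high-score trees, against 7.53, 9.06 and 12.7 TPM in the low-score trees, a difference of -0.63. Fe_g31235.3 had 0.513, 0.883 and 1.17 TPM in the high-score trees, against 1.36, 1.63 and 4.21 TPM in the low-score trees, a difference of -0.57. Without the 10 trees the 4 differences were -3.60 for Fe_g3071, -3.03 for Fe_g18298, -0.54 for Fe_g12271 and -0.60 for Fe_g31235.3.

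The gene with the lowest difference was Fe_g43723, also without annotation. Its lowest, median and highest levels were 0.395, 3.47 and 21.5 TPM in the high-score trees and 5.82, 67.8 and 388 TPM in the low-score trees, a difference of -3.80, and -3.65 without the 10. All 30 high-score trees lay below the low-score median, 20 of them below every low-score tree, and the middle trees had a median of 15.2 TPM.

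At the other side stood Fe_g33199, with 1.06, 21.1 and 134.7 TPM in the high-score trees and 0, 1.93 and 97.2 TPM in the low-score trees, a difference of 2.23, and 2.99 without the 10. Of the low-score trees 10 of 30 were listed at 0 and of the high-score trees none was, but the ranges overlapped widely. The 20 high-score trees had a median of 31.8 TPM and the 10 had 5.67 TPM. Fe_g25182 had 0, 30.99 and 121.3 TPM in the high-score trees and 0, 1.06 and 75.01 TPM in the low-score trees, a difference of 1.67, and 1.59 without the 10. Only 19 of 30 high-score trees lay above its low-score median.

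The ranges of the 2 most abundant genes overlapped between the ends. Fe_g25603 had 65.4, 3101 and 56308 TPM in the high-score trees and 1220, 10641 and 45306 TPM in the low-score trees, a difference of -1.52. Its high-score range was that of 2 sets of trees, with 65.4 to 7504 TPM in the 20 and 15883 to 56308 TPM in the 10, and without the 10 the difference was -3.01. Fe_g32504 had medians of 4665 TPM in the high-score trees and 5605 TPM in the low-score trees, with a difference of -0.55 that was -0.15 without the 10 and 0.00 when those 20 trees were also scaled.

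**Figure D3:**
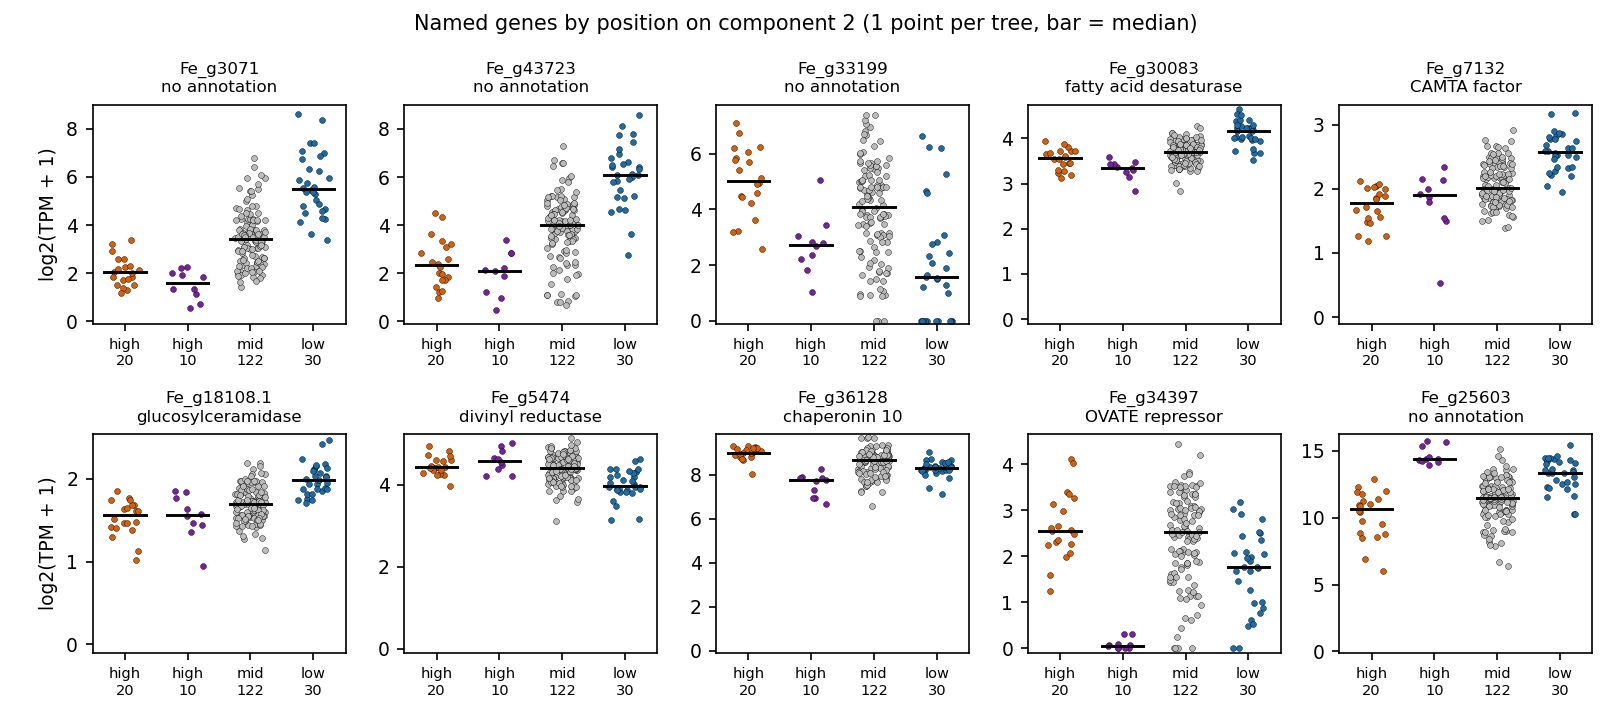
log2(TPM + 1) of 10 named genes (vertical), 1 point per tree, in the 20 high-score trees, the 10 high-score trees above 100 on component 1, the middle trees and the 30 low-score trees, with a bar at each median. Fe_g3071 shows no overlap between the ends, Fe_g30083, Fe_g7132 and Fe_g18108.1 lie lower in both sets of high-score trees, and Fe_g34397, Fe_g36128 and Fe_g25603 split those 2 sets.

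The middle trees stood nearer to the high end for most lower genes. In 825 of the 925 lower genes the mean of the middle trees lay between the 2 ends. On a scale where the low-score mean is 0% and the high-score mean 100%, the median position of the middle trees was 70.4%, with quartiles of 53.4% and 83.6%, and in 726 genes it was nearer the high end. Among the 27 higher genes the middle mean lay between the ends in 24, with a median position of 54.9%.

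The lower genes often had neighbouring identifiers. In 206 of 925 (22.3%) the identifier just before or after was also in the set, against 1072 of 30078 other genes (3.56%) with a neighbour in that set. Among the higher genes 2 of 27 (7.41%) had such a neighbour, and these were neighbours of each other. That is too few to set against the 0.110% of other genes. Neighbouring identifiers can be copies of 1 gene among which reads were shared out, and genome positions were not used here. Lower genes were not confined to weakly expressed ones. In 5 equal classes of mean TPM, from the lowest to the highest, the share at least 1 lower was 1.45%, 3.08%, 3.08%, 3.68% and 3.63%. Of the 925 lower genes, 26 were listed at 0 in at least 15 high-score trees and in fewer low-score trees. Of the 27 higher genes, 5 were listed at 0 in at least 15 low-score trees and in fewer high-score trees.

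Of the annotated genes, 5 (4.90%) were at least 1 lower in the high-score trees and 0 at least 1 higher, beside 2.98% and 0.0871% of all genes. The 5 were Fe_g19663, a SOC1-like MADS-box gene, Fe_g18374, a JOINTLESS-like gene, Fe_g25658, a P-type cation ATPase, Fe_g44002, an ethylene response factor, and Fe_g2619, a UDP-glycosyltransferase. Without the 10 trees 2 (1.96%) were at least 1 lower, Fe_g19663 and Fe_g18379, and 0 higher, beside 6.72% and 3.15% of all genes. The share of annotated genes was thus above that of all genes with the 10 and below it without them. The median over the annotated genes was -0.30, against -0.19 over all genes tested. Of the annotated genes 71 (69.6%) lay below the median of all genes, 77 (75.5%) without the 10 and 72 (70.6%) after scaling. Because scaling moved the median of all genes by 0.17, differences of groups are read below against that median. In 31 annotated genes (30.4%) at least 27 high-score trees lay below the low-score median, beside 13.7% of all genes.

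All 4 SOC1-like genes lay below the all-gene median, and 3 of 4 without the 10, with a median difference of -0.59, and -0.61 without the 10. Fe_g19663 had 0, 12.4 and 24.99 TPM at the lowest, median and highest in the high-score trees and 0.514, 20.2 and 44.6 TPM in the low-score trees, a difference of -1.10. Of the high-score trees 27 of 30 lay below the low-score median, and 9 low-score trees lay above every high-score tree. The level was lowest in the 20 trees, with a median of 8.28 TPM against 15.2 TPM in the 10, and the difference without the 10 was -1.26. Fe_g40353 had 2.04, 38.9 and 67.9 TPM in the high-score trees and 11.3, 52.2 and 71.8 TPM in the low-score trees (-0.61, and -0.53 without the 10), with 28 of 30 below the low-score median. Fe_g40351.1 had medians of 14.6 TPM in the high-score trees and 21.2 TPM in the low-score trees (-0.56, and -0.70 without the 10). Only the 20 had a lower median, 14.5 TPM, while the 10 had 22.99 TPM. Fe_g40350 had medians of 31.8 TPM in the high-score trees and 34.7 TPM in the low-score trees. Its difference of -0.35 was -0.14 without the 10 and 0.01 when those trees were also scaled, so its direction was not kept. The middle trees had medians of 9.97 TPM for Fe_g19663, 38.97 TPM for Fe_g40353, 14.9 TPM for Fe_g40351.1 and 33.6 TPM for Fe_g40350. Those of Fe_g19663, Fe_g40353 and Fe_g40351.1 lay nearer the high-score median, and that of Fe_g40350 nearer the low-score median.

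The SVP-like gene Fe_g22999 had no steady direction, and its ranges overlapped fully. It had 0.582, 14.8 and 36.7 TPM in the high-score trees and 0.960, 10.96 and 29.5 TPM in the low-score trees, a difference of 0.11 that was 0.48 without the 10. It was -0.05 with a pseudocount of 0.1 and -0.30 with 20 trees per end. The 10 trees had a median of 6.19 TPM and the 20 had 18.3 TPM, on either side of the low-score median. The middle trees had 20.1 TPM, above both ends.

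The 6 JOINTLESS-like genes had a median difference of -0.59, and -0.44 without the 10, with 5 of 6 below the all-gene median in both. Fe_g18374, which carries a K-box, had 0, 25.5 and 60.9 TPM in the high-score trees and 13.9, 46.03 and 73.8 TPM in the low-score trees, a difference of -1.03, and -0.87 without the 10. Of the high-score trees 27 of 30 lay below the low-score median, and 7 lay below every low-score tree. Fe_g18379 divided the trees into those with and without transcript. It was listed at 0 in 10 of 30 high-score trees and in 4 of 30 low-score trees, and its medians were 4.94 TPM in the high-score trees and 14.3 TPM in the low-score trees (-0.97, and -1.14 without the 10). The highest value among the high-score trees was 16.3 TPM, and 12 low-score trees lay above it. Fe_g18376 had medians of 7.68 TPM in the high-score trees and 11.2 TPM in the low-score trees (-0.68, and -0.49 without the 10). Fe_g18375 had 31.2 TPM in the high-score trees and 37.8 TPM in the low-score trees (-0.49, and -0.40 without the 10). Fe_g18373.1 had 4.82 TPM in the high-score trees and 4.94 TPM in the low-score trees (-0.39, and -0.28 without the 10). Its median was 5.58 TPM in the 20 and 3.32 TPM in the 10, and 14 of 30 high-score trees lay above the low-score median. The ranges of these 3 genes overlapped between the ends. Fe_g36254, the most abundant of the 6, had medians of 99.5 TPM in the high-score trees and 100.7 TPM in the low-score trees. Its difference was -0.17, and 0.06 after scaling and 0.02 without the 10. The middle trees had medians of 32.5 TPM for Fe_g18374, 5.39 TPM for Fe_g18379 and 7.91 TPM for Fe_g18376. They had 28.98 TPM for Fe_g18375, 4.46 TPM for Fe_g18373.1 and 101.5 TPM for Fe_g36254. Salmon shares reads among similar transcripts, so levels of single MADS-box copies are uncertain.

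**Figure D4:**
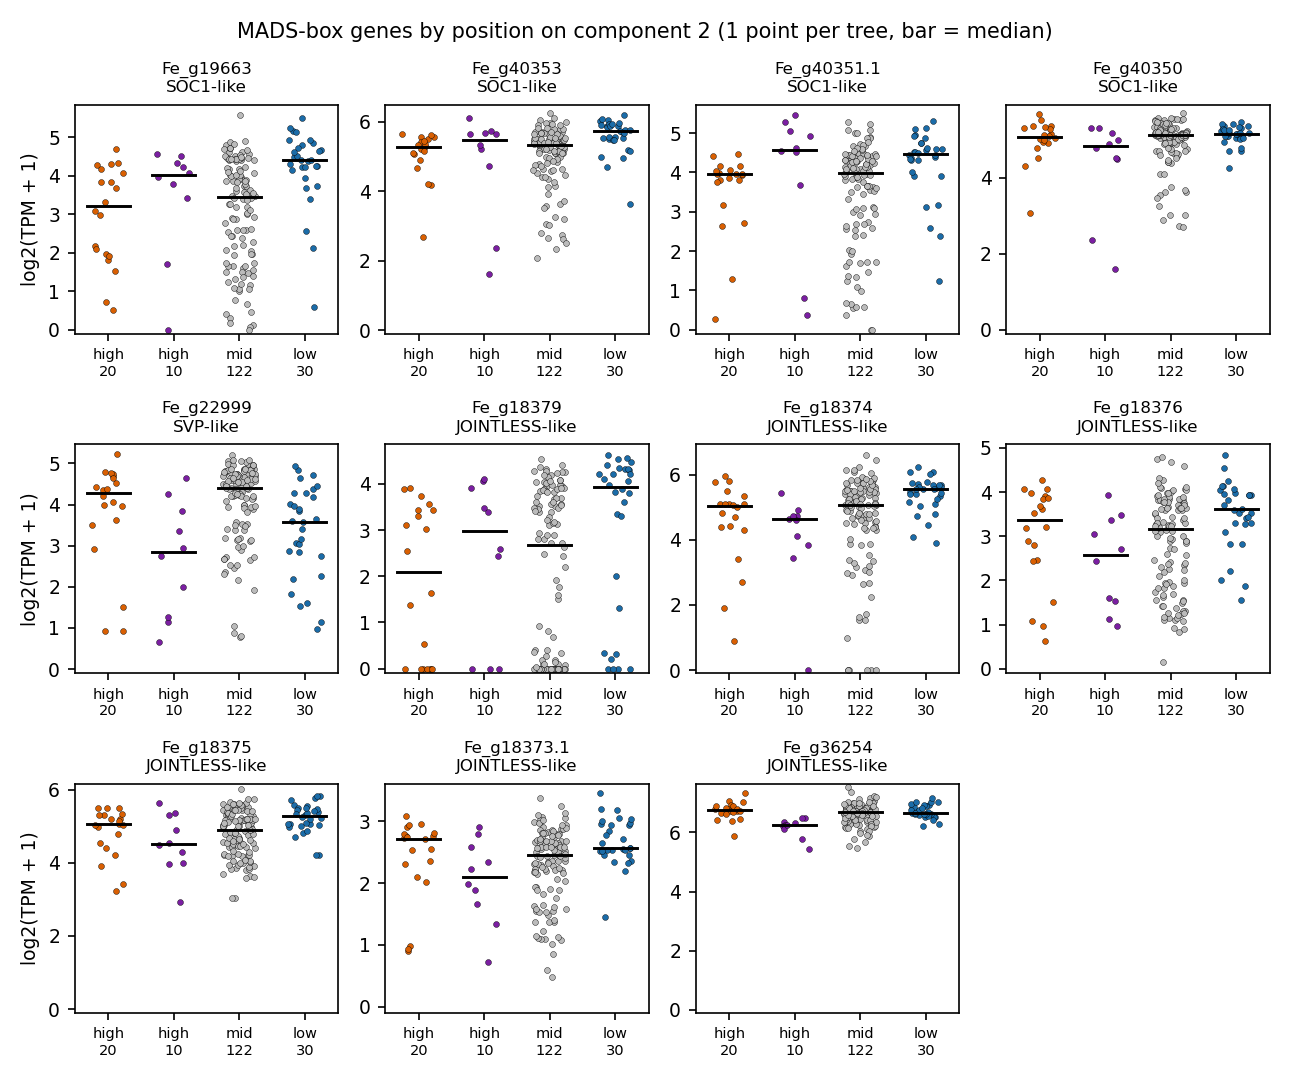
log2(TPM + 1) of the 11 MADS-box genes (vertical), 1 point per tree, in the 20 high-score trees, the 10 high-score trees above 100 on component 1, the middle trees and the 30 low-score trees, with a bar at each median. Fe_g19663, Fe_g40353, Fe_g40350, Fe_g18374, Fe_g18379, Fe_g18376 and Fe_g18375 have lower medians in both sets of high-score trees than in the low-score trees. Fe_g18379 has trees at 0 in every set, and Fe_g22999 lies above the low-score median in the 20 and below it in the 10.

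OVATE proteins are transcriptional repressors that shape plant organs, and the levels of their genes differed between the 2 sets of high-score trees. Fe_g34397 had 1.36, 4.86 and 16.2 TPM in the 20 high-score trees, 0, 0.0391 and 0.241 TPM in the 10 and 0, 2.41 and 8.10 TPM in the low-score trees. Fe_g34396 had medians of 2.14 TPM in the 20 trees, 0 in the 10, of which 8 were listed at 0, and 0.681 TPM in the low-score trees. Values of 0 were not confined to the 10, with 6 low-score and 7 middle trees for Fe_g34396. For Fe_g34397 they were 2 low-score and 4 middle trees. Fe_g20799 had medians of 2.14 TPM in the 20 trees, 0.149 TPM in the 10 and 2.44 TPM in the low-score trees. Their differences over all 30 trees were 0.12, 0.34 and -0.41, and without the 10 they were 0.98, 0.88 and 0.06. The class median of 0.12 turned to -0.27 with a pseudocount of 0.1, to -0.61 when the ends were redrawn after median-of-ratios scaling and to -0.07 with 20 trees per end. Of the annotated genes 10 (9.80%) were at least 1 lower in the 10 trees than in the other 20, and 0 at least 1 higher, beside 18.1% and 11.9% of all genes.

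Plastid genes had the highest median difference of the classes, 0.18, and 0.39 without the 10, when only the OVATE (0.88) and SVP-like (0.48) genes were higher. It was -0.06 when the ends were redrawn after median-of-ratios scaling. Fe_g5474, a divinyl reductase of chlorophyll synthesis, had 14.6, 20.7 and 31.4 TPM in the high-score trees and 7.76, 14.8 and 23.8 TPM in the low-score trees, a difference of 0.50, and 0.45 without the 10. It was higher in both sets of high-score trees, with 29 of 30 above the low-score median, and it was the only annotated gene with at least 27 trees on that side. Fe_g32180, a coproporphyrinogen oxidase of the same route, had medians of 862 TPM in the high-score trees and 822 TPM in the low-score trees (0.22, and 0.32 without the 10). Fe_g39558, the kinase CMK of the plastid isoprenoid route, had medians of 16.3 TPM in the 20 trees, 7.80 TPM in the 10 and 12.2 TPM in the low-score trees, and its difference was 0.14, and 0.45 without the 10. The 4th gene, Fe_g40731, codes for an NCED dioxygenase, which cleaves carotenoids on the way to abscisic acid. It had medians of 0.426 TPM in the high-score trees and 1.203 TPM in the low-score trees, a difference of -0.53, and -0.49 without the 10, with 28 of 30 high-score trees below the low-score median. These leaf plastid transcripts were above 0 in every tree of both ends, with Fe_g32180 at 515 TPM or more at both ends.

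Among chaperones, Fe_g36128, the chloroplast chaperonin 10, had 262, 511 and 636 TPM in the 20 high-score trees, 101.04, 211.5 and 305 TPM in the 10 and 138.4, 315 and 520 TPM in the low-score trees. The difference over all 30 trees was 0.22, and it was 0.71 without the 10. Fe_g3105, a small heat shock protein, had 0.155, 0.892 and 3.84 TPM in the high-score trees and 0.855, 2.83 and 6.78 TPM in the low-score trees. Its difference was -0.90, and -0.70 without the 10, with 29 of 30 high-score trees below the low-score median. The median over the 4 genes of the class was -0.07, and -0.12 without the 10, above that of all genes in both.

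Of 5 genes of the AP2 and ethylene response class, 4 lay below the all-gene median, with a median difference of -0.36, and -0.41 without the 10. The ethylene response factor Fe_g44002 had 0, 0.714 and 5.57 TPM in the high-score trees and 0.315, 3.01 and 11.5 TPM in the low-score trees, a difference of -1.05, and -0.87 without the 10. Another, Fe_g32756, had medians of 5.15 TPM in the 20 high-score trees, 1.74 TPM in the 10 and 7.89 TPM in the low-score trees. Its difference of -0.92 was -0.41 without the 10. The AP2-domain gene Fe_g27900 had medians of 26.6 TPM in the high-score trees and 24.5 TPM in the low-score trees (0.20, and 0.10 without the 10).

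The CAMTA factor Fe_g7132, of a family that binds calmodulin and acts in calcium signalling, had 0.444, 2.60 and 4.08 TPM in the high-score trees and 2.86, 4.96 and 8.05 TPM in the low-score trees. Its difference was -0.82, and -0.84 without the 10. All 30 high-score trees lay below the low-score median, and 20 lay below every low-score tree. Fe_g6059, related to the co-repressor TOPLESS, had medians of 3.14 TPM in the high-score trees and 4.65 TPM in the low-score trees (-0.45, and -0.59 without the 10), with 29 of 30 below the low-score median. A second such gene, Fe_g12567.1, had medians of 5.63 TPM in the high-score trees and 7.46 TPM in the low-score trees (-0.37, and -0.49 without the 10). All 4 genes of the NF-YA and TOPLESS-related class lay below the all-gene median with and without the 10.

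The clock and light genes had a median difference of -0.18, and -0.21 without the 10, close to that of all genes. Fe_g28326, the pseudo-response regulator PRR1 of the circadian clock, was the most even of them, with 7.13, 10.6 and 13.5 TPM in the high-score trees and 10.4, 13.2 and 15.6 TPM in the low-score trees, a difference of -0.32 in all 30 trees and without the 10. In 29 of 30 high-score trees it lay below the low-score median. It was -0.11 after scaling. Fe_g21102, a B-box zinc finger gene, had medians of 4.28 TPM in the 20 high-score trees, 1.44 TPM in the 10 and 5.29 TPM in the low-score trees, and its difference of -0.57 was -0.21 without the 10.

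All 6 lipid and sphingolipid genes lay below the all-gene median, and 5 after scaling, with a median difference of -0.36, and -0.40 without the 10. Fe_g30083, a fatty acid desaturase, which puts double bonds into membrane fatty acids, had 6.11, 9.97 and 14.3 TPM in the high-score trees and 10.4, 16.98 and 24.2 TPM in the low-score trees, a difference of -0.65, and -0.58 without the 10. All 30 high-score trees lay below the low-score median, and 25 low-score trees lay above every high-score tree. Fe_g18108.1, a glucosylceramidase, which removes glucose from a sphingolipid, had 0.920, 1.95 and 2.60 TPM in the high-score trees and 2.28, 2.97 and 4.52 TPM in the low-score trees, a difference of -0.47 with and without the 10. Its levels were alike in the 20 and the 10, with medians of 1.96 and 1.95 TPM.

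All 6 ubiquitin-related genes also lay below the all-gene median, with a median of -0.44, and -0.50 without the 10. The ankyrin E3 ubiquitin ligase Fe_g40376 had 0.978, 1.88 and 3.75 TPM in the high-score trees and 2.18, 3.91 and 6.20 TPM in the low-score trees, a difference of -0.75, and -0.74 without the 10, with 21 high-score trees below every low-score tree. The RING finger gene Fe_g27366.1 had medians of 2.70 TPM in the high-score trees and 5.22 TPM in the low-score trees (-0.71, and -0.63 without the 10). The 3 protease genes had a median of -0.26, and -0.34 without the 10. The signal peptide peptidase-like Fe_g6658 was the lowest of them, at -0.53, and -0.62 without the 10, with 25.1 TPM in the high-score trees and 36.4 TPM in the low-score trees at the median.

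Among the 5 kinases the median difference was -0.51, and -0.49 without the 10. Fe_g38091, a cysteine-rich receptor kinase, had 0.910, 7.20 and 23.9 TPM in the high-score trees and 2.55, 14.9 and 34.2 TPM in the low-score trees (-0.98, and -0.91 without the 10). Fe_g41707.2, a leucine-rich repeat receptor kinase, had medians of 2.08 TPM in the high-score trees and 3.95 TPM in the low-score trees (-0.65, and -0.60 without the 10). The auxin and membrane transport genes had a median of -0.35, and -0.45 without the 10. LAX3, the auxin influx carrier Fe_g22928.1, had 0.577, 2.78 and 6.92 TPM in the high-score trees and 2.25, 5.76 and 9.80 TPM in the low-score trees (-0.67, and -0.52 without the 10), with 29 of 30 below the low-score median.

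Pumps, carriers and channels differed among themselves, around a median of -0.29 with and without the 10. The P-type cation ATPase Fe_g25658 had 0.316, 2.146 and 18.4 TPM in the high-score trees and 1.24, 6.05 and 13.2 TPM in the low-score trees (-1.06, and -0.82 without the 10). The cyclic nucleotide-gated channel Fe_g20031, an ion channel family of plant calcium signalling, had 3.11, 7.12 and 10.3 TPM in the high-score trees and 8.11, 9.90 and 12.6 TPM in the low-score trees. The difference was -0.46, and -0.29 without the 10, and 24 of 30 high-score trees lay below every low-score tree. The MATE transporter Fe_g40685 had medians of 59.9 TPM in the high-score trees and 44.95 TPM in the low-score trees (0.19, and 0.40 without the 10), with ranges that overlapped almost wholly.

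Cell wall genes had a median of -0.29, and -0.42 without the 10, when all 6 lay below the all-gene median. The pectate lyase Fe_g17679.1, which loosens pectin, had 1.18, 26.8 and 99.2 TPM in the high-score trees and 18.4, 39.5 and 80.1 TPM in the low-score trees (-0.87, and -0.53 without the 10). Fe_g7485, of polysaccharide synthesis, had medians of 1.504 TPM in the high-score trees and 3.05 TPM in the low-score trees (-0.58, and -0.43 without the 10), with 29 of 30 below the low-score median. Glycosyl, methyl and reductase enzymes had a median of -0.22, and -0.06 without the 10. The UDP-glycosyltransferases Fe_g2619 and Fe_g2620.2 have neighbouring identifiers and had differences of -1.02 and -0.83, and of -0.65 and -0.58 without the 10. Fe_g2619 had medians of 4.32 TPM in the high-score trees and 10.2 TPM in the low-score trees, and Fe_g2620.2 had 1.45 TPM in the high-score trees and 3.58 TPM in the low-score trees.

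The remaining classes lay near or below the median of all genes. Vesicle and Golgi genes had a median of -0.19, and -0.21 without the 10. Cell cycle and DNA polymerase genes had -0.20 and -0.17, RNA binding and processing genes -0.25 and -0.24, chromatin and other DNA-binding genes -0.29 and -0.38, and prohibitins with an organelle RNA polymerase -0.34 and -0.39, each with the value without the 10 given second. Small differences could still be even over trees on unscaled TPM. After scaling, the 2 genes that follow were at -0.18 (Fe_g39849.1) and -0.16 (Fe_g35698). Fe_g39849.1, a Barentsz-domain gene of RNA processing, had 1.75, 2.62 and 3.48 TPM in the high-score trees and 2.37, 3.64 and 4.71 TPM in the low-score trees (-0.35, and -0.37 without the 10), and all 30 high-score trees lay below the low-score median. The organelle RNA polymerase Fe_g35698 had medians of 3.04 TPM in the high-score trees and 4.23 TPM in the low-score trees (-0.34, and -0.48 without the 10), and 21 high-score trees lay below every low-score tree, with 2.81 TPM in the 20 and 4.18 TPM in the 10.

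**Figure D5:**
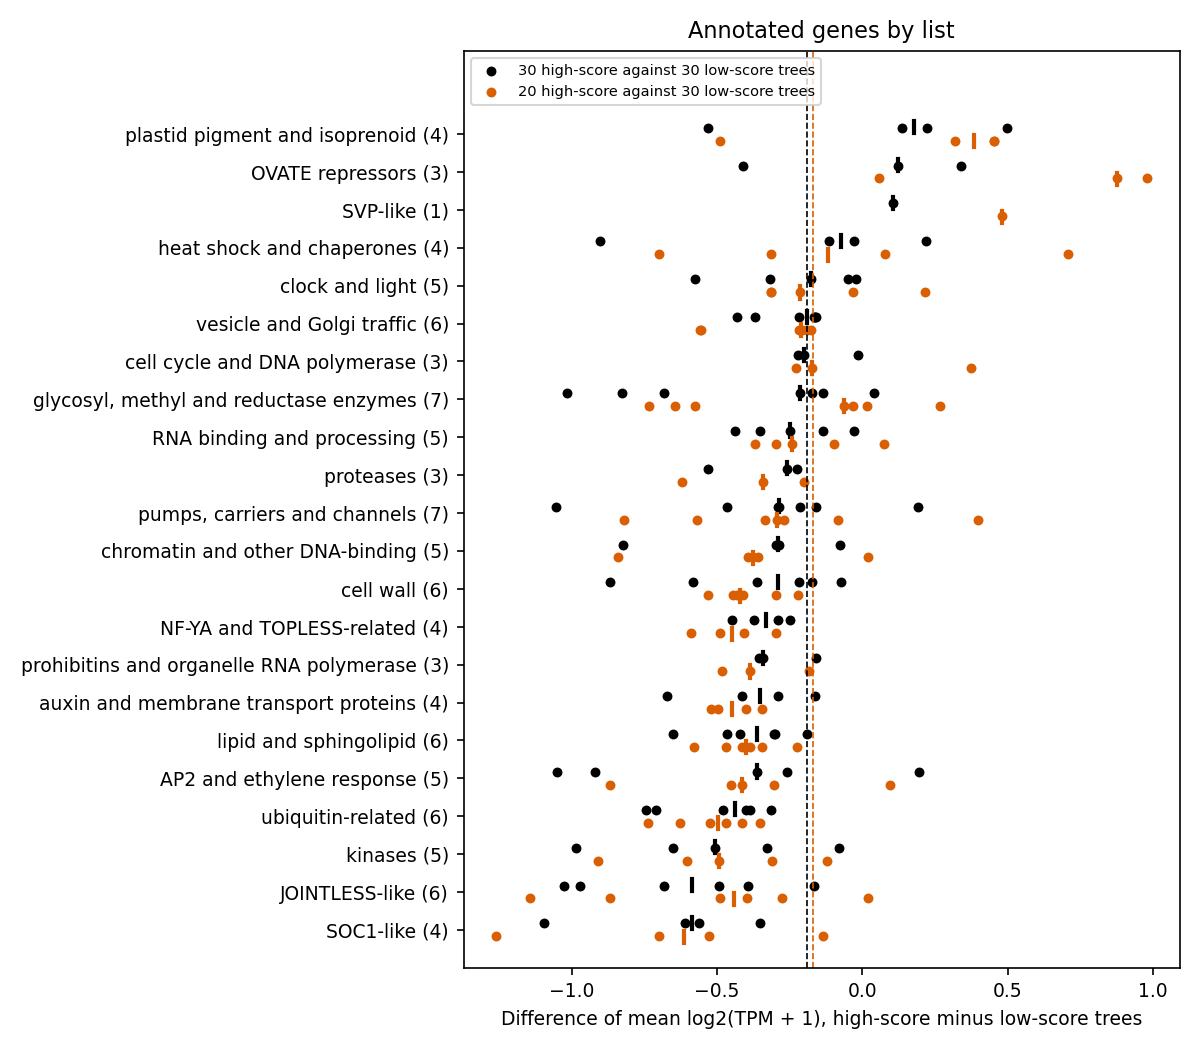
Difference of mean log2(TPM + 1), high-score minus low-score trees (horizontal), of the annotated genes in 22 classes (vertical, number of genes in brackets), 1 point per gene, for all 30 high-score trees in black and for the 20 without the 10 trees above 100 on component 1 in orange, with bars at the class medians. Dashed lines mark the medians of all 31003 genes at -0.19 and -0.17. Over all 30 trees, SOC1-like and JOINTLESS-like genes lie lowest at -0.59 each, and plastid and OVATE genes lie to the right at 0.18 and 0.12. Without the 10, SOC1-like genes lie lowest at -0.61. JOINTLESS-like genes, at -0.44, then lie above ubiquitin-related genes at -0.50 and kinases at -0.49. The OVATE median turned to -0.27 with a pseudocount of 0.1. The plastid and OVATE medians turned to -0.06 and -0.61 with ends redrawn after median-of-ratios scaling.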

How the data were processed

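Leaf RNA of 182 Danish ash trees, 1 library per tree, had been sequenced as 100 bp Illumina reads. Per the labels, the authors used Trimmomatic for trimming, Salmon 0.8 for quantification on the coding sequences of their ash genome and tximport to build the table. The deposited values are TPM, which the authors' tools scaled to a sum of 1000000 per tree, so a few abundant genes can lower all others and depth per tree is unknown.

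Principal components were computed from log2(TPM + 1) over genes that reached 1 TPM in 19 or more trees (Python 3.11.15, numpy 2.4.6, pandas 2.3.3). The ends hold 30 trees each. Since the trees were chosen on these values, gene levels were described without a test, and a difference of 1 on the log2 scale was used for counts. Tree number was compared with a permutation test of 100000 resamples and run series with Fisher's exact test (scipy 1.17.1), with Benjamini-Hochberg adjustment over the 2. The trees are separate, but relatedness among them was not modelled. The procedure was tested on simulated data. The members and the gene lists were chosen with earlier results of these data known. Named genes were the 11 MADS-box genes, the 10 most positive and 10 most negative of the 102 annotated genes, up to 2 of each of the 22 classes, the 2 highest and 2 lowest of all other genes and the 2 most abundant, and the 4 without overlap were added later. Alternatives were the pseudocount, the filter, scaling, the number of trees per end, trees left out and the first run series alone.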

Additional observations from a re-analysis of the deposited data

How the results depend on the processing

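The axis depended on the processing. Of the 30 high-score and 30 low-score trees, 15 and 15 stayed in their end with median-of-ratios scaling and 11 and 18 with genes scaled to unit variance. Without the 18 trees farthest on component 1 they were 8 and 14. Those 18 included 10 high-score trees and the low-score trees Ash55 and Ash185, which could not stay. With a pseudocount of 0.1 the trees that stayed were 25 and 29, and without Ash94 and Ash24, the 2 trees farthest on component 2, 20 and 26. Ash94 and Ash24 are high-score trees, so neither could stay. Genes at least 1 higher and at least 1 lower in the high-score trees were 0.0871% and 2.98% of those tested. They were 0.416% and 8.03% with a pseudocount of 0.1, 0.158% and 1.38% without the 18 trees, and 1.57% and 5.17% in the first run series. Higher genes alone were 0.326% with median-of-ratios scaling, 0.206% without the 2 trees, 0.281% with 20 trees per end and 0.0323% with 45. Lower genes were 1.76% with unit variance, where component 2 held 9.004% of the variance. Chosen after seeing the data, leaving out the 10 trees gave 3.15% and 6.72%, and scaling with the trees kept gave 0.194% and 1.83%.

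The difference in mean tree number, -28.3 in the main comparison, was -62.4 with median-of-ratios scaling (permutation test, adjusted p = 0.00024), -28.9 in the first run series (p = 0.0448, the only test in that set) and -33.7 without the 10 trees (adjusted p = 0.0384). It turned to 55.1 with unit variance (adjusted p = 0.00132), 58.1 without the 18 trees (adjusted p = 0.00112) and 6.13 without the 2 trees (adjusted p = 0.661). The share of second-series trees, 36.7% at the high end and 16.7% at the low end, differed by 31.3 percentage points without the 18 trees (Fisher's exact test, adjusted p = 0.00477) and by -1.67 without the 10. The causes were not tested. Of the named genes past 1 on the log2 scale, Fe_g18374 turned to 0.081 with unit variance, and Fe_g44002 to 0.36 and Fe_g33199 to -0.876 without the 18 trees. Of the other values of named genes under an alternative, 717 moved by less than the spread between trees and 48 by more. Of the class medians 258 moved by less and 6 by more, 5 of these with median-of-ratios scaling. Sign changes were 47 of 768 for genes and 23 of 264 for class medians, and most came with median-of-ratios scaling for classes (12 of 22) and with that scaling (16 of 64) or without the 18 trees (11 of 64) for genes. No paired analysis was possible because the trees form 1 group and no replicate numbers are shared.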

Other observations

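Among the genes detected, those outside the filter were also fewer in the high-score trees than in the low-score trees. Of the 11662 gene models outside the filter, 3558 ± 315 were above 0 TPM in a high-score tree, 3574 ± 353 without the 10 trees above 100 on component 1, and 4036 ± 279 in a low-score tree (SD, n = 30, 20 and 30), with 3845 ± 308 in a middle tree. Their summed level was 976 ± 80.5 TPM in the 20 high-score trees, 1460 ± 321 TPM in the 10 and 1448 ± 308 TPM in the low-score trees.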
